A study of Mus musculus with 2 samples.

Results

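The genes described here are 10 immediate early genes outside the AP-1 family: Egr1, Egr2, Egr3, Ier2, Ier3, Ier5, Klf4, Klf6, Phlda1 and Tnfrsf12a, out of 21938 protein-coding genes annotated by GENCODE on mm10. For each gene, every Etv4 and Etv5 ChIP-seq region inside the gene or within 50 kb of it was collected, which gave 52 of the 13636 Etv4 regions and 30 of the 8297 Etv5 regions. The binding of the ETS factors Etv4 and Etv5 was mapped in EpRas cells, an H-Ras-transformed derivative of the EpH4 mouse mammary gland epithelial cell line, grown in 4% serum. Both libraries came from cells that had received TGF-β3 at 1 ng/ml for 1.5 h, 1 library with a rabbit polyclonal anti-Etv4 antibody and 1 with a mouse monoclonal anti-Etv5 antibody. No untreated library and no input library were analysed here, so neither an effect of TGF-β nor a background level could be measured. With 1 library per antibody, no test between the antibodies was possible, and no RNA levels of these genes were analysed here. The lists hold positions only, the depth behind them is unknown, and a longer list can come from a deeper library.

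Immediate early genes are transcribed within minutes of a growth factor or serum signal, without the need for new protein synthesis. Many of them are switched on through serum response elements, where the serum response factor SRF sits on a CArG box and partners of the ternary complex subfamily of ETS proteins, which are phosphorylated by Erk, bind an adjacent ETS site. Etv4 and Etv5 belong to another ETS subfamily, the PEA3 group, which also acts downstream of Ras and Erk signaling.

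Of the 10 genes, 8 had an Etv4 region inside or within 50 kb, compared with 53.4% of all protein-coding genes, and 8 had an Etv5 region, compared with 42.7%. An Etv4 region lay within 2 kb of the gene start at 6 genes, namely Ier2, Ier3, Ier5, Klf6, Phlda1 and Tnfrsf12a, whereas 15.8% of all protein-coding genes had one. An Etv5 region lay that close at 4 genes, Ier2, Ier5, Phlda1 and Tnfrsf12a, compared with 8.95% of all genes. These 4 genes had regions of both lists near the start, a feature of 5.29% of all genes. Etv4 regions reached into the body of 6 genes (23.0% of all genes) and Etv5 regions into 4 (14.7% of all genes). An Etv4 region and an Etv5 region with at least 1 bp in common were present at 7 genes, compared with 29.5% of all genes. Egr1 and Klf4 had no region of either list. The genes were short, with a median length of 4219 bp against 17425 bp over all protein-coding genes, and had a median of 1.50 other coding genes within 50 kb against 3. These counts describe 1 library for each antibody, and the genes were not tested against other genes.

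**Figure D1:**
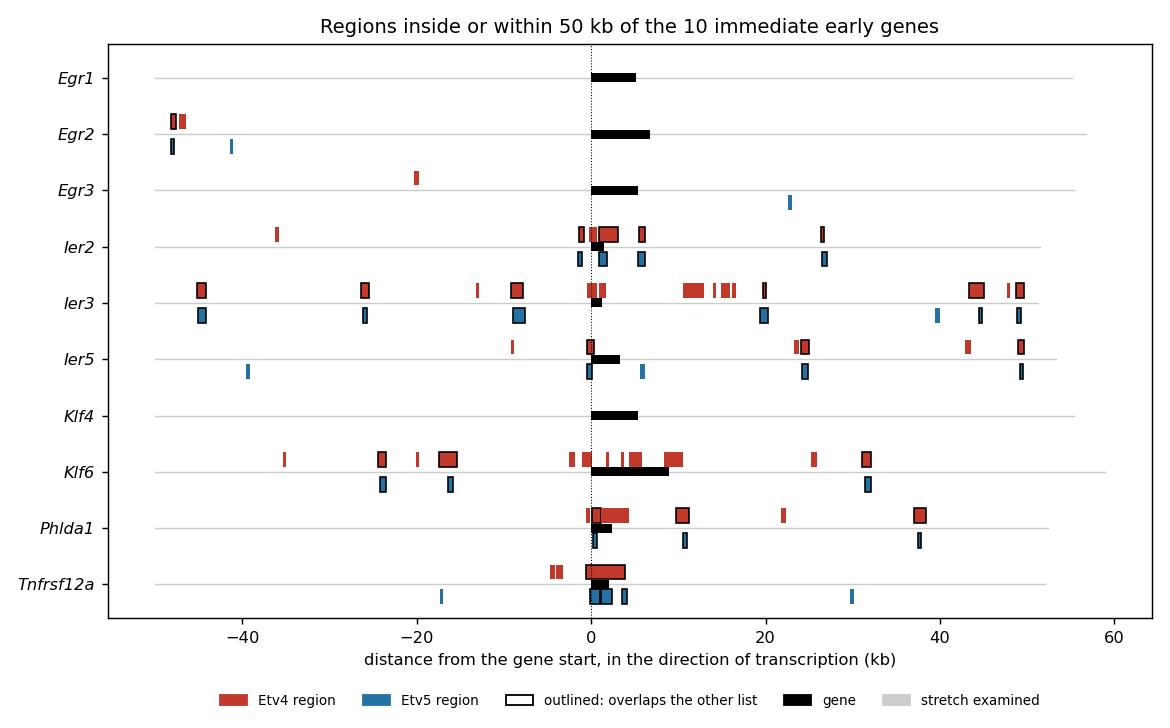
Position of each Etv4 region (red, above each line) and Etv5 region (blue, below it) relative to the gene start in kb, in the direction of transcription, for the 10 genes. Black bars mark the genes, grey lines the stretch examined, and black outlines mark regions that overlap the other list. Regions of the shortest kind are drawn with a minimum width. Egr1 and Klf4 have no region, and the regions of Egr2 and Egr3 all lie away from the genes.

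The number of regions differed widely among the genes. Ier3 had 14 Etv4 regions and Klf6 had 13, and only 0.287% and 0.442% of protein-coding genes had as many or more. Phlda1 had 7 (4.08% of genes had as many or more), Ier2 and Ier5 had 6 each (6.09%), Tnfrsf12a had 3 (20.7%), Egr2 had 2 (32.2%) and Egr3 had 1 (53.4%). The order was different for Etv5. Ier3 again had the most, with 7 regions (0.903% of genes had as many or more), followed by Ier5 and Tnfrsf12a with 5 each (2.53%), Ier2 with 4 (4.82%), Klf6 and Phlda1 with 3 each (9.73%), Egr2 with 2 (19.6%) and Egr3 with 1 (42.7%). Tnfrsf12a was the only one of the 10 genes with more Etv5 than Etv4 regions, but 1 of its Etv4 regions was long and overlapped 3 of its Etv5 regions. The median per gene was 4.50 Etv4 and 3 Etv5 regions, compared with medians of 1.00 and 0 over all protein-coding genes. Ier3 and Klf6 together held 27 of the 52 Etv4 regions and 10 of the 30 Etv5 regions.

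**Figure D2:**
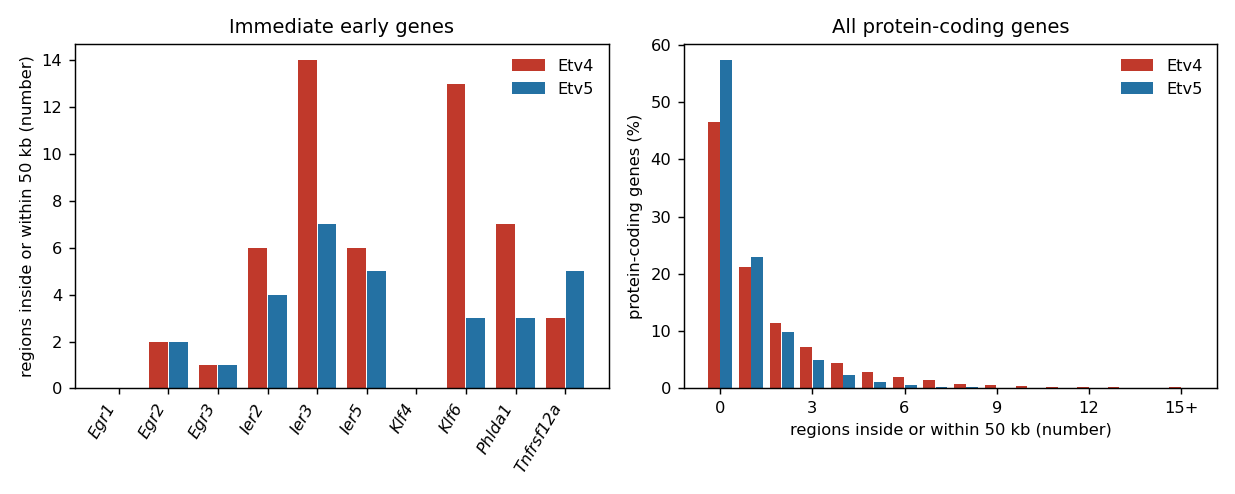
Left, number of Etv4 (red) and Etv5 (blue) regions inside or within 50 kb of each of the 10 genes. Right, the percentage of all protein-coding genes with each number of regions, with 15 or more in the last class. The bars of Ier3 (14) and Klf6 (13) stand in the thin tail of the Etv4 distribution.

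The sequences of 10 windows show the patterns that these regions and promoters contain. All are on mm10 (GRCm38) and read 5′ to 3′ on the strand of the gene. Capitals mark matches to the ETS pattern (CAGGAAGT or CCGGAAGT, or ACTTCCGG where the match is on the other strand), the CArG box or the EGR site (GCGTGGGCG or GCGGGGGCG). The first set shows letters that Ier2 and Klf6 have in common. It holds a window in an overlapping Etv4 and Etv5 pair upstream of Ier2 (chr8:84664050-84664117, minus strand) and a window at the end of an Etv4 region in an intron of Klf6 (chr13:5863439-5863508, plus strand, running past the end of the region).
Ier2 upstream ETS and CArG: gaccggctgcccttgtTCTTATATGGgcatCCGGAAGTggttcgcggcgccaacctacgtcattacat
Klf6 intron CArG: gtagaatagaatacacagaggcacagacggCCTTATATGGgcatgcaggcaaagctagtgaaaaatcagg

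In the Ier2 window, the capitals TCTTATATGG differ from a CArG box at 1 position and stand 4 bases before the ETS match CCGGAAGT at chr8:84664080-84664087. The Klf6 window has a full CArG box, and the pair of windows have a run of 13 bases in common, cttatatgggcat. This run was present in 2 of the Etv4 regions and 1 of the Etv5 regions, which are the regions just named, and occurs 69 times in the genome on both strands together. An ETS match with a CArG box of at most 1 mismatch within 20 bases was found in 1 of the 52 Etv4 regions and 1 of the 30 Etv5 regions at these genes, the Ier2 pair. In the whole lists, 0.293% of Etv4 regions and 0.181% of Etv5 regions had this arrangement. The arrangement was looked for after the sequence had been seen.

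The second set holds the other ETS matches in regions near a gene start and those in overlapping pairs, as examples of the letters under the lists. They are a stretch downstream of Ier2 (chr8:84659979-84660046, minus strand), the next pair downstream of Ier2 (chr8:84657039-84657146, minus strand), the pair upstream of Ier3 (chr17:35813807-35813914, plus strand), an Etv4 region just upstream of Klf6 (chr13:5859278-5859345, plus strand) and a distal pair upstream of Klf6 (chr13:5837409-5837516, plus strand).
Ier2 downstream of the gene: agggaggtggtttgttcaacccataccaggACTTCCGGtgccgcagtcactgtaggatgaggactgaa
Ier2 downstream pair: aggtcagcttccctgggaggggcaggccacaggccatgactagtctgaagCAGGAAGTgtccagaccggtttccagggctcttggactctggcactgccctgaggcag
Ier3 upstream pair: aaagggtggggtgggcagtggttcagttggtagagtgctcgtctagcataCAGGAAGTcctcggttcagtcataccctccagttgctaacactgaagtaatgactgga
Klf6 upstream region: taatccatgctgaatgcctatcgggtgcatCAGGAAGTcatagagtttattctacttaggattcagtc
Klf6 distal pair: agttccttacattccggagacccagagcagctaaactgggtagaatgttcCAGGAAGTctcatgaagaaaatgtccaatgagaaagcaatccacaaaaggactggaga

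The third set comes from RefSeq promoters (GRCm38.p6, 250 bases before to 50 after a start), which matched 6 of the 10 genes: Egr2, Ier3, Ier5, Klf4, Klf6 and Tnfrsf12a. It contrasts a gene whose promoters have CArG boxes but no region near them, Egr2 (chr10:67537464-67537533 and chr10:67537767-67537836, plus strand), with a gene whose promoter has EGR sites under both lists, Tnfrsf12a (chr17:23677469-23677543, minus strand).
Egr2 promoter, upstream start: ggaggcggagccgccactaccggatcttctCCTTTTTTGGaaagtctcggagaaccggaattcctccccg
Egr2 promoter, downstream start: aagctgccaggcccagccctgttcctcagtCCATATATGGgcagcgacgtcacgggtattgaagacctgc
Tnfrsf12a promoter: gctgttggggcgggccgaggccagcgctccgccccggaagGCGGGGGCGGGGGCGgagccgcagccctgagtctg

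Of 32851 RefSeq promoters, 1.63% held a CArG box and 3.47% an EGR site. In Egr2, CCTTTTTTGG began 72 bases before the RefSeq start of its promoter. CCATATATGG lay in overlapping promoters and began 72, 73 and 133 bases before their starts. The Tnfrsf12a matches overlap each other and began 54 and 48 bases before the RefSeq start. Klf4 also had an EGR site in its promoter, 194 bases before the start, but no region of either list within 50 kb. A match in these windows is a description of the letters and not a measured binding site.

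The Ier genes code for small proteins that are induced early and act in cell growth and survival. At Ier2 (chr8:84661331-84662852, minus strand, a single exon), 4 of the 6 Etv4 regions met all 4 Etv5 regions. Going along the direction of transcription, the first pair lay upstream, with an Etv4 region of 557 bp at chr8:84663724-84664280 and an Etv5 region of 433 bp at chr8:84663933-84664365, and their midpoints were 1.15 and 1.30 kb from the gene start. This is the pair that holds the ETS and near-CArG letters printed above. The gene start itself was spanned by an Etv4 region of 905 bp (chr8:84662233-84663137), which had a cAMP response element, TGACGTCA, 38 bases upstream of the start and did not overlap any Etv5 region. The next Etv4 region, 2201 bp long (chr8:84659784-84661984), began in the gene and ran past its end. It met an Etv5 region of 997 bp (chr8:84661010-84662006) that was number 262 of the Etv5 list, in the first 3.16%. The lists number their regions by a criterion that is not stated, and these numbers are given only as an order. An AP-1 match, TGACTCA, lay in both, 1.21 kb after the gene start. The lists therefore differed in which part of Ier2 they covered. Etv4 regions took in 100% of the 5′ UTR, 78.3% of the coding sequence and 86.3% of the 3′ UTR, whereas the Etv5 region took in 89.2% of the 3′ UTR and none of the 5′ UTR or coding sequence. The remaining pairs were 5.85 kb downstream, with the ETS match CAGGAAGT, and 26.5 kb downstream in an intron of Cacna1a, a calcium channel gene.

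Ier3 (chr17:35821684-35822923, plus strand), also known as IEX-1, a regulator of apoptosis, had the most regions of both lists, but only Etv4 regions in the gene. An Etv4 region of 1163 bp spanned the start (chr17:35821177-35822339, number 417, in the first 3.06% of the list) and another of 815 bp covered the end of the gene (chr17:35822622-35823436), although the nearest coding start to its midpoint was that of Flot1. Between them they covered 77.3% of the gene, including all of the coding sequence. The nearest Etv5 region was 7.58 kb away. It was 1405 bp long (chr17:35812699-35814103) and overlapped an Etv4 region of 1389 bp (chr17:35812531-35813919). Both ranked early in their lists, at 3.59% and 4.14%, and both held the ETS match printed above and an AP-1 match, TGAGTCA. Further upstream lay overlapping pairs at 25.9 kb and at about 44.7 kb, the latter in an exon of the gene model 4833427F10Rik with 2 matches to TGACGTCA. Downstream, 8 Etv4 regions had their nearest coding start at Tubb5, Mdc1 or Ppp1r18, including the longest Etv4 region around Ier3, of 2326 bp (chr17:35832265-35834590). All Etv5 regions downstream had their nearest coding start at Mdc1, Nrm or Ppp1r18, including number 218, the earliest Etv5 region around Ier3. The high counts of Ier3 in both lists thus include regions that are closer to its neighbours.

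Ier5 (chr1:155096361-155099636, minus strand, a single exon), related in sequence to Ier2, differed from Ier3 in that both lists had a region across the gene start. An Etv4 region of 825 bp (chr1:155099272-155100096) and an Etv5 region of 565 bp (chr1:155099564-155100128) both spanned the start and overlapped by 533 bp. They reached little into the gene, with 11.1% of it under the Etv4 region and 2.23% under the Etv5 region. The start regions were not the earliest in the lists at this gene. A pair 24.6 kb downstream, in an intron of the gene model Gm9530, ranked earlier, at 3.89% of the Etv4 list and 7.04% of the Etv5 list, against 12.9% and 74.3% at the start. The downstream Etv4 region of the pair was also the longest at Ier5, with 905 bp (chr1:155074633-155075537), and both regions held the AP-1 match TGAGTCA. No ETS match was found in any region of Ier5.

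Phlda1 and Tnfrsf12a are early genes that do not code for transcription factors. Phlda1 (chr10:111506286-111508645, plus strand) codes for a protein with a pleckstrin homology-like domain. Its start was flanked, not spanned, by Etv4 regions, one of 446 bp ending 99 bp upstream (chr10:111505742-111506187) and one of 1015 bp beginning 62 bp downstream (chr10:111506348-111507362). Next to them followed an Etv4 region of 995 bp (chr10:111507409-111508403) and one of 2166 bp (chr10:111508448-111510613), so that 93.6% of the gene was covered. A single Etv5 region of 516 bp (chr10:111506467-111506982) lay within this stretch and covered 42.5% of the coding sequence. Overlapping pairs were also found at about 10.4 and 37.7 kb downstream. Of these, the Etv4 region at 37.7 kb ranked earliest among those of Phlda1, at 4.45% of the list.

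Tnfrsf12a (chr17:23675445-23677468, minus strand), which codes for Fn14, the receptor of the cytokine TWEAK, was covered entirely by 1 Etv4 region. This region of 4503 bp (chr17:23673534-23678036) was the longest at the 10 genes and ranked in the first 2.62% of the Etv4 list. It overlapped 3 Etv5 regions, of 1216 bp across the gene start (chr17:23676405-23677620), of 1334 bp over the rest of the gene (chr17:23675027-23676360) and of 550 bp beyond it (chr17:23673357-23673906). The first and second of these covered 97.8% of the gene. They ranked at 28.0% and 15.7% of the Etv5 list. The overlapping EGR sites printed above lay in the Etv4 region and in the first Etv5 region, 21 and 27 bases upstream of the gene start at their nearest base, and another EGR site lay 2.09 kb after the start. AP-1 matches were found in both lists at 0.615 and 0.758 kb after the start, inside the gene. Within 50 kb of Tnfrsf12a there are 8 other coding genes, and the other Etv4 regions lay 3.62 and 4.48 kb upstream, in Cldn6. The Etv5 regions outside the gene had their nearest coding start at Hcfc1r1, Mmp25 or Cldn9.

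**Figure D3:**
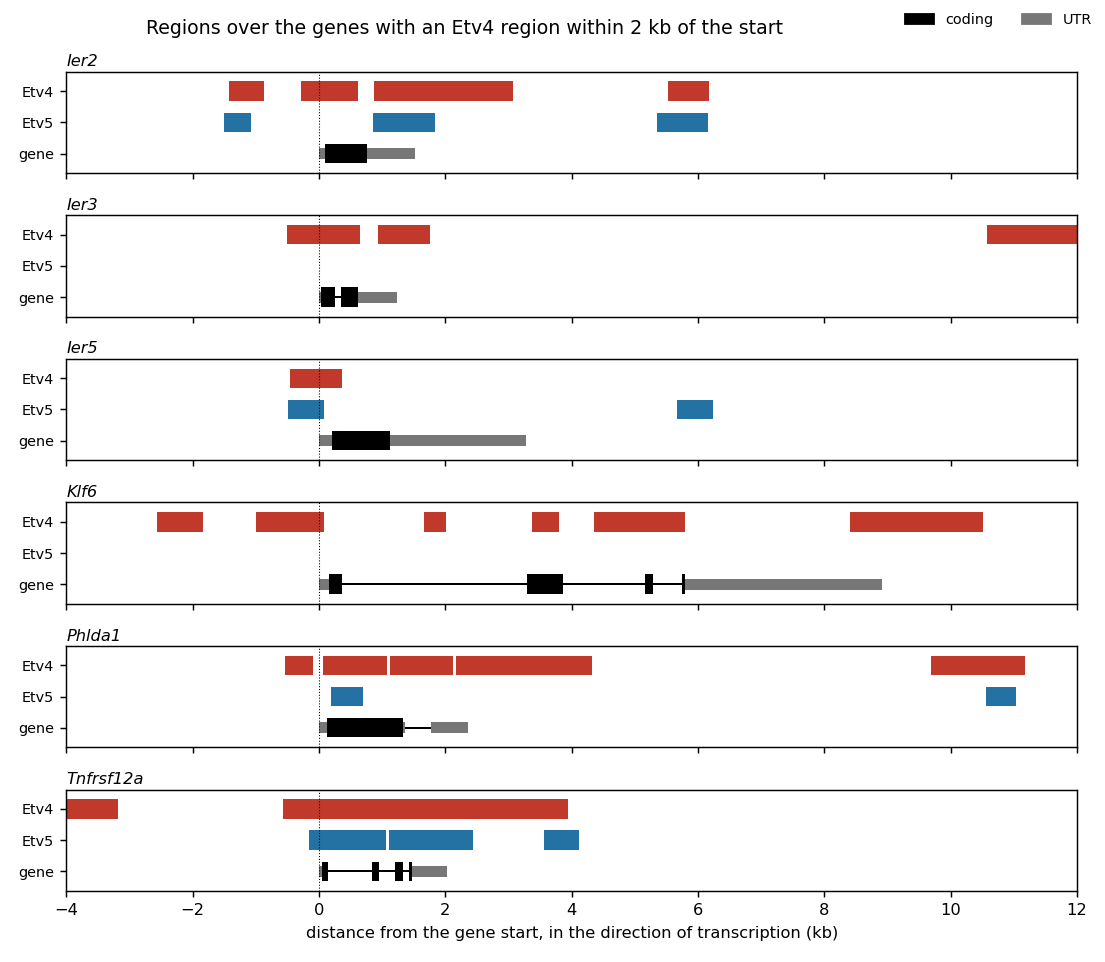
Etv4 regions (red), Etv5 regions (blue) and the gene model (black, coding; grey, UTR; line, intron) from 4 kb before to 12 kb after the gene start, in kb along the direction of transcription, for the 6 genes with an Etv4 region within 2 kb of the start. Ier3 and Klf6 have Etv4 regions only over the gene, and Tnfrsf12a is covered by both lists.

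Klf4 and Klf6 code for zinc finger factors of the Krüppel-like family. Klf6 (chr13:5861482-5870394, plus strand) had 6 Etv4 regions in the gene and no Etv5 region there. One of 1065 bp spanned the start (chr13:5860491-5861555), one of 723 bp lay just upstream (chr13:5858918-5859640) with the ETS match printed above, and one of 344 bp in the first intron (chr13:5863142-5863485) held the CArG box, 1.99 kb after the start. The Etv4 regions covered 31.2% of the gene, 61.9% of its coding sequence and 34.3% of its introns. A further CArG box was in the longest region that reached into the gene, of 2103 bp at its 3′ end (chr13:5869890-5871992). All 3 Etv5 regions of Klf6 were distal, 23.9 and 16.1 kb upstream and 31.7 kb downstream, and each overlapped an Etv4 region. Each pair had 2 AP-1 matches in common. The downstream pair ranked at 6.98% of the Etv4 list and 3.98% of the Etv5 list. Klf6 has no other coding gene within 50 kb. Klf4 (chr4:55527143-55532466, minus strand), known as a pluripotency factor and an epithelial regulator, has none either, yet had no region within reach. The nearest Etv4 region was 127 kb from Klf4 and the nearest Etv5 region 53.9 kb.

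The Egr genes, zinc finger factors that bind GC-rich EGR sites and are classical targets of serum and Erk signaling, had no region of either list across the gene or within 2 kb of the gene start. The same was true of 70.3% of all protein-coding genes. Around Egr2 (chr10:67535475-67542188, plus strand), the Etv4 regions lay 46.8 kb upstream (744 bp, chr10:67488255-67488998) and 47.9 kb upstream, and the Etv5 regions 41.2 and 48.1 kb upstream, all of them intergenic. The most distal ones overlapped, and the Etv5 region of this pair ranked at 98.7% of its list. Both Etv4 regions held the AP-1 match TGAGTCA. At Egr3 (chr14:70077203-70082614, plus strand), the single Etv4 region was 20 kb upstream in Pebp4 (598 bp, chr14:70056863-70057460). The single Etv5 region was 22.8 kb downstream, but only 108 bp from the start of another gene, Bin3, and held 2 ETS matches, CAGGAAGT and CCGGAAGT. The nearest Etv4 region to Egr1 (chr18:34859823-34864984, plus strand) was 89.0 kb away and the nearest Etv5 region 93.3 kb. Since a list holds only what passed the caller, a gene without a region is one with no listed region, and how much signal it had is unknown.

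Of the 30 Etv5 regions, 23 had at least 1 bp in common with an Etv4 region (76.7%, exact 95% interval 57.7 to 90.1%), compared with 63.2% of the whole Etv5 list. When 50% of both regions had to be shared, this fell to 11 of 30 (36.7%), below the 48.4% of the list by the same rule, and for the Etv4 regions to 21.2%, against 29.5% of the list. The order of these genes and the list thus turned with the overlap rule. By 1 bp, 21 of the 52 Etv4 regions overlapped an Etv5 region (40.4%, interval 27.0 to 54.9%), compared with 37.8% of the whole list. Both list-wide shares lay within the intervals. Within 2 kb of the gene starts, 6 of 6 Etv5 regions overlapped (interval from 54.1%), against 52.4% of all Etv5 regions that close to a coding gene start, and these 6 regions lie at only 4 genes. For Etv4 it was 5 of 13 (38.5%, interval 13.9 to 68.4%), against 27.6%. Beyond 2 kb, 17 of 24 Etv5 regions (70.8%) and 16 of 39 Etv4 regions (41.0%) overlapped, against 66.1% and 41.0% of the lists. Regions at these genes were split by the gene's own start, and the lists by any coding gene start. The groups beyond 2 kb at these genes thus include regions at the starts of neighbouring genes, unlike those of the lists. The intervals cover counting error only, and regions of 1 gene are not independent of each other. The Etv4 list is the longer one, and the shares of the lists were not compared with each other.

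The regions at these genes also differed in length. The Etv4 regions had a median of 780 bp against 589 bp for the list, and 6 of the 122 Etv4 regions of 2 kb or longer were among them. They were located at Ier2, Ier3, Klf6 (2 regions), Phlda1 and Tnfrsf12a. The Etv5 regions had a median of 558 bp against 532 bp. In the order of the region numbers, 12 of the 52 Etv4 regions (23.1%) and 6 of the 30 Etv5 regions (20%) were in the first 10% of their list. The median number stood at 26% of the Etv4 list and 47.9% of the Etv5 list. By the midpoint, 27 Etv4 regions lay within 2 kb of the start of some annotated transcript (51.9%, list 36.5%), 16 were intergenic (30.8%, list 31.2%), 7 intronic (13.5%, list 29.7%) and 2 exonic (3.85%, list 2.60%). For Etv5 these were 11 (36.7%, list 33.0%), 12 (40%, list 34.0%), 6 (20%, list 30.9%) and 1 (3.33%, list 2.06%). The early gene itself had the nearest coding start for 40 of the 52 Etv4 and 21 of the 30 Etv5 regions. Over all protein-coding genes, 32.9% of the pairs of a gene and an Etv4 region within 50 kb met this, and 34.3% for Etv5, with a median of 3 other coding genes in reach. In none of the 82 regions did more than 50% of the 36-base sequences occur more than once in the genome, and the highest share was 12.8%.

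Patterns were counted in a window of 500 bp centred on each region, on both strands. Of the 52 Etv4 regions, 6 held the ETS pattern (11.5%, with an interval from 4.35 to 23.4%), against 10.2% of the list. Of the Etv5 regions, 4 of 30 held it (13.3%), against 7.93% of the list. The AP-1 pattern (TGACTCA or TGAGTCA), bound by Fos and Jun proteins, was counted in the same windows. Its share cannot be ranked against that of the ETS pattern, since a looser ETS pattern with a GGAA core was present in 88.5% of the Etv4 and 86.7% of the Etv5 regions, and in 81.5% and 79.1% of the lists. An AP-1 match lay in 20 of 52 Etv4 regions (38.5%, with an interval from 25.3 to 53.0%) and in 12 of the 30 Etv5 ones (40%), compared with 37.4% and 35.8% of the lists. Within 2 kb of the gene start, 1 of 13 Etv4 regions held it, compared with 12.3% of all Etv4 regions near a coding gene start, and beyond 2 kb 19 of 39 did (48.7%), compared with 45.5%. Over the whole length of the regions, a count added after seeing the data, 3 of 13 held it near the start (23.1%, list 14.2%), at Ier2, Phlda1 and Tnfrsf12a, and 18 of 39 beyond (46.2%, list 46.6%). As for the overlap, regions at these genes were split by the gene's own start, and the list by any coding gene start. Among Etv4 regions that overlapped an Etv5 region 11 of 21 held the AP-1 pattern (52.4%), and among the others 9 of 31 (29.0%), with 44.2% and 33.3% in the whole list. The RUNX pattern (TGTGGTT or TGTGGTC) was present in 7 Etv4 regions (13.5%, list 24.7%) and 6 Etv5 regions (20%, list 23.9%). A CArG box was in 2 Etv4 regions (3.85%, list 2.60%) and in 0 of 30 Etv5 regions (list 2.61%). The Smad site GTCTAGAC was in 0 of either list within this window, which allows up to 6.85% of Etv4 and 11.6% of Etv5 regions by the interval, and the lists held it in 0.785% and 0.760%. The EGR site was in 2 Etv4 regions (3.85%, list 1.74%) and 1 Etv5 region (3.33%, list 1.52%), and TGACGTCA in as many (lists 1.55% and 1.18%). The EGR matches counted here lay around Ier3, at Tubb5 and Ppp1r18, and those at Tnfrsf12a lay outside the 500 bp. Near the start of these genes, 0 of 13 Etv4 regions held the EGR site and 1 of 13 TGACGTCA. Of all Etv4 regions near a coding gene start, 5.41% held the EGR site and 4.15% TGACGTCA. Outside the 500 bp, 1 Smad site lay in the long Etv4 region at Ier2, 2.69 kb after the start. For the ETS, AP-1, RUNX, CArG, Smad, EGR and TGACGTCA patterns, the share of the whole list lay within the interval at these genes, for Etv4 as for Etv5.

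**Figure D4:**
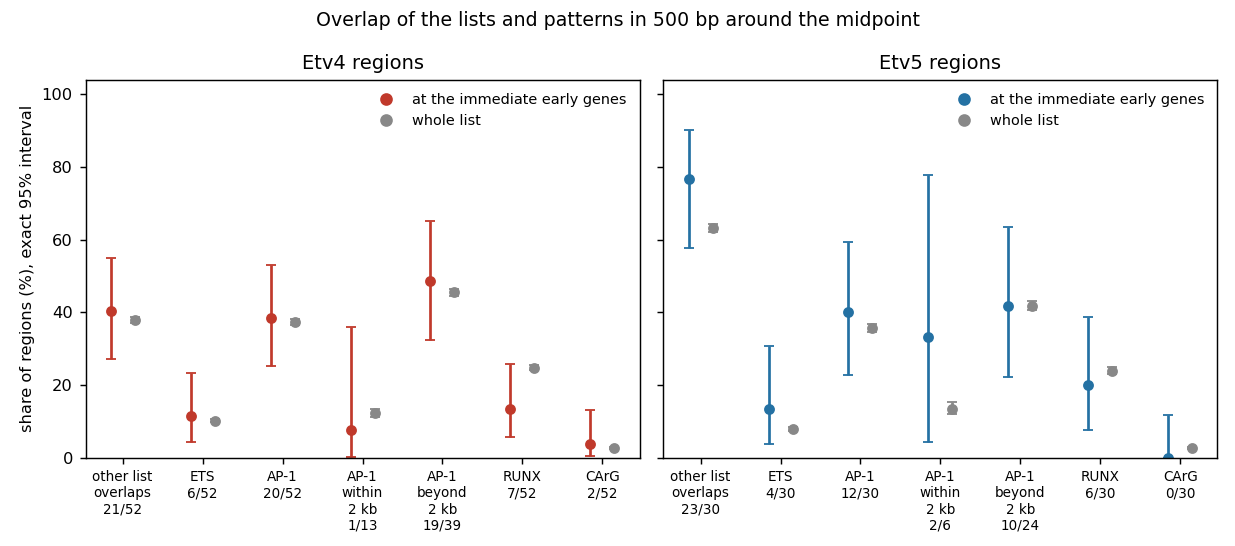
Share in percent of Etv4 regions (left) and Etv5 regions (right) that overlap the other list or hold a pattern in 500 bp around the midpoint, at the 10 genes (colour) and in the whole list (grey), with exact 95% intervals. Counts at the 10 genes stand under each label. For AP-1 within and beyond 2 kb, regions at the 10 genes are split by the start of that gene, and the list by any coding gene start. The group beyond 2 kb at the 10 genes thus includes regions at the starts of neighbouring genes. In these windows, Etv4 regions beyond 2 kb hold AP-1 in 48.7% and those within 2 kb in 7.69%.

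A list of 38 other immediate early genes was counted in the same way and was also chosen with earlier results of these data known. An Etv4 region was present within 50 kb of 30 of them and within 2 kb of the start of 22, against 53.4% and 15.8% of all protein-coding genes. For Etv5 these counts were 26 and 10, against 42.7% and 8.95%. Regions of both lists lay near the start of 9 genes, against 5.29%. The medians were 3 Etv4 and 1.00 Etv5 regions per gene. The highest Etv4 counts were at Bhlhe40 (11), which codes for a basic helix-loop-helix repressor, at the clock gene Per1 (10), and at Gadd45b, a stress response gene, Ier5l, a relative of Ier5, and Zfp36, which codes for the mRNA decay factor tristetraprolin (9 each). Bhlhe40 and Ier5l, like Ier3 and Klf6, had Etv4 regions near the start and in the gene and no Etv5 region there. Per1 had 2 Etv5 regions but no Etv4 region within 2 kb of the start, with regions of both lists further inside the gene. No region of either list was found at 8 of the 38 genes, including Egr4, the fourth Egr gene, the nuclear receptor genes Nr4a1, Nr4a2 and Nr4a3, and Ppp1r15a. Egr4 thus resembled Egr1 in having no region within reach. Over all protein-coding genes, 46.6% had no Etv4 region and 57.3% no Etv5 region inside or within 50 kb.

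**Figure D5:**
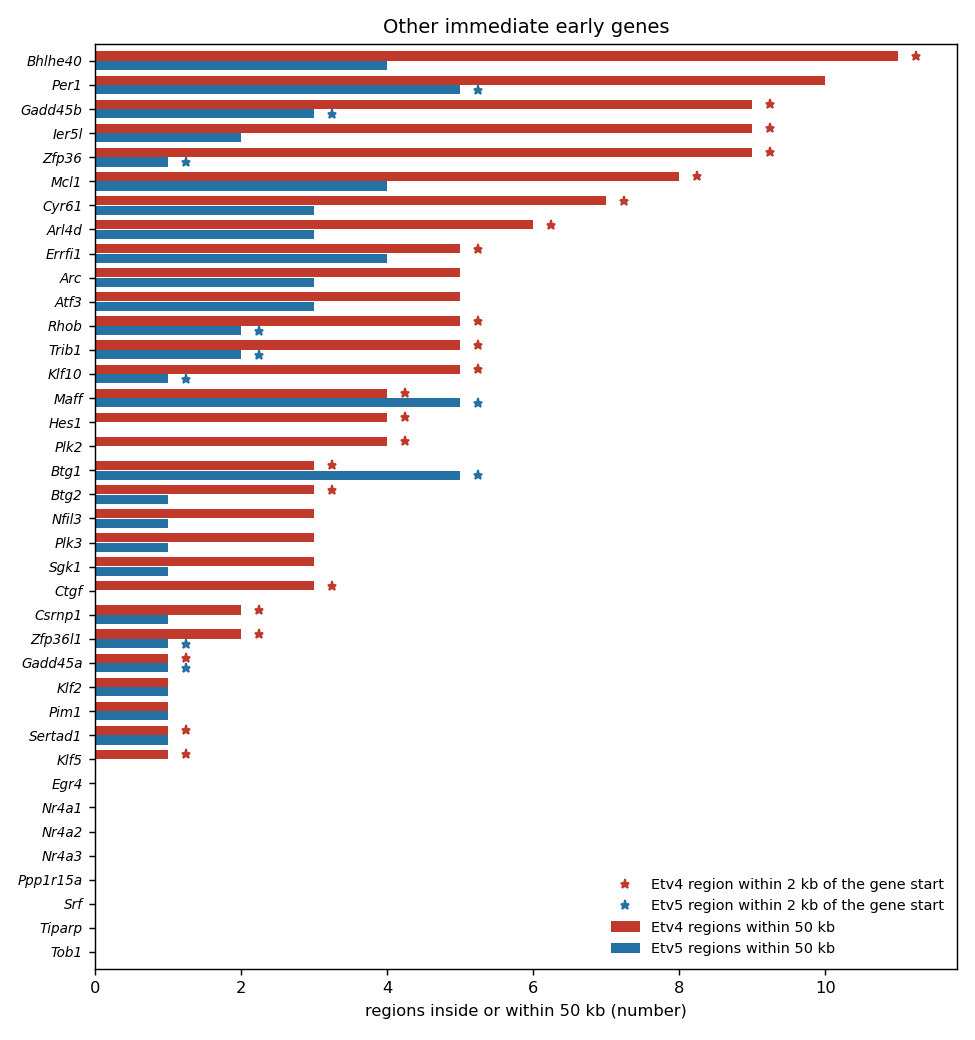
Number of Etv4 (red) and Etv5 (blue) regions inside or within 50 kb of 38 other immediate early genes, ordered by the Etv4 count. A star marks genes with a region of that list within 2 kb of the gene start. Bhlhe40 has the most Etv4 regions (11), and the 8 genes at the bottom have none of either list.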

How the data were processed

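The deposited files are 2 BED lists of regions, 1 for each antibody, with positions in base pairs of mm10. The authors cut reads to 36 bp and mapped them with bowtie2, as the methods give it for the study's accessibility libraries (the labels list Bowtie), and called regions with the one-sample analysis of CisGenome (window of 300 bp, p threshold of 0.1), without input. The deposited BED score is 1000 throughout, and the deposited region number, which runs from 1 to the number of regions by a criterion not stated, was used only as an order. The files give no read counts. Ends may be inclusive, so lengths are uncertain by 1 bp.

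The genes and lists were chosen with earlier results of these data known. Gene models came from GENCODE M21, promoters from RefSeq GRCm38.p6, and near-start means at least 1 bp of a region within 2 kb of the gene start. All 10 genes are named, with positions for regions near a start, for overlapping pairs with the ETS pattern or CArG box and for the longest region of a gene. Of the other early genes, those with the 5 highest Etv4 counts are named, and of those without a region up to 5 in alphabetical order. Scripts (Python 3.11.15, pandas 2.3.3, scipy 1.17.1) were tested on simulated data. Shares have exact (Clopper-Pearson) 95% intervals. Alternatives changed the reach, overlap rule, list threshold, pattern and window.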

Additional observations from a re-analysis of the deposited data

How the results depend on the processing

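Of 44 values under other settings, 32 moved the result by less than its counting interval or by less than 1.5 times and 12 moved it by more. When only the first 50% by region number were kept, 33 Etv4 and 16 Etv5 regions remained and the genes with an Etv5 region near the start numbered 2. With the longer 50%, there were 34 Etv4 and 16 Etv5 regions. These drops follow from the shorter lists. A reach of 20 kb left 15 Etv5 regions, since it is the smaller stretch. The overlap shares depended on the rule: with 50% of both regions shared they were 21.2% for Etv4 (list 29.5%) and 36.7% for Etv5 (list 48.4%), and with midpoints within 250 bp the shares were 53.3% for Etv5 (list 54.3%) and 30.8% for Etv4 (list 33.1%). The Etv4 share of the ETS pattern was 1.92% for CCGGAAGT alone (1 of 52, list 3.45%) and 88.5% (list 81.5%) for the loose pattern. The loose pattern is a GGAA core with 1 flanking base fixed to a pair of letters on each side. For Etv5, CCGGAAGT alone was in 2 of 30 regions (6.67%, list 2.17%). The Etv4 share of the AP-1 pattern fell to 15.4% in windows of 200 bp (list 24.0%). By the main settings, the Etv4 and Etv5 overlap shares and the Etv4 shares of the ETS and AP-1 patterns were above those of their lists. The overlap shares were below under both other overlap rules. For Etv4, CCGGAAGT alone and AP-1 in 200 bp were also below, whereas for Etv5 CCGGAAGT alone was above its list. The cause of these turns was not tested. An Etv4 region lay near the start of 6 genes under each alternative tried for it. Leaving out Ier3 and Klf6, chosen after seeing the data, gave 4 shares within the intervals. No paired analysis was possible because the lists have no replicate here and no result comes from a test. The unknown depth limits what an absent region means.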
